A study of Rattus norvegicus with 9 samples.

Results

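Insulin and insulin-like growth factors signal through a short chain of proteins, and 9 rat genes of that chain are described here. They are the receptors Insr and Igf1r, the docking proteins Irs1 and Irs2, the phosphoinositide 3-kinase (PI3K) regulatory subunit Pik3r1, the kinases Akt1 and Akt2, and the transcription factors Foxo1 and Foxo3. They were picked by gene symbol from a table of 32792 genes, and each symbol matched 1 row. All 9 passed the filter on low values (1 FPKM in 3 or more libraries), as did 8532 genes in all. RNA had been sequenced from cultured smooth muscle cells of the rat thoracic aorta in 3 groups of 3 libraries. The labels call the cells a VSMC line and do not say whether libraries came from separate cultures, so p-values measure the spread between these libraries, which may be technical. The control cells were transfected with an empty vector and treated with bovine serum albumin (BSA). Cells of the second group carried the same vector and were exposed for 24 h to AGEs (advanced glycation end products) at 200 µg/mL, proteins altered by sugars whose levels are raised in diabetes. Cells of the third were transfected with CTSD, the gene of the lysosomal protease cathepsin D, and received the same AGEs. The labels do not give the construct, or how many of the cells took it up. The 9 samples include no CTSD cells with BSA and no cells without a vector. Whether an effect of CTSD depends on AGEs therefore cannot be told.

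As background, a bound receptor phosphorylates the IRS proteins, which recruit PI3K through its regulatory subunit. The lipid that PI3K makes brings AKT to the membrane, where it is activated. Active AKT phosphorylates FOXO factors and keeps them out of the nucleus. When insulin signalling is weak, FOXO factors enter the nucleus and switch on genes of growth arrest, autophagy and stress resistance, and in several tissues also Insr and Irs2 themselves. In arterial smooth muscle the IGF1 receptor and AKT are known for promoting survival and growth. Transcript levels, which are what was measured here, do not show phosphorylation or location of these proteins.

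Depth ran from 4492416 to 5341647 assigned fragments per library. Levels are FPKM (fragments per kilobase, scaled by library size), which take the deposited gene length and depth into account. Group values are mean ± SD with n = 3. Comparisons of level between genes hold only as far as the deposited lengths match the transcripts sequenced, which was not tested. Ctsd stood at 11.7 to 14.8 FPKM in the 6 empty-vector libraries and at 195 to 203 in the 3 CTSD libraries, a 14.4-fold difference under AGEs (log2 fold change 3.75, exact two-sided permutation p = 0.1, the smallest that 3 against 3 libraries can give). Of 11 smooth muscle markers 6 could be tested, Myocd was listed at 0, and Myh11 had 24 fragments over the 9 libraries. The markers' summed level was 158 to 176 FPKM with BSA, 139 to 140.4 with AGEs and 215 to 219 with CTSD. Most of that sum was Tpm2, with means of 106, 80.2 and 132 FPKM, and members differed, with Acta2 at 8.45, 8.25 and 22.8, Smtn at 18.8, 18.8 and 19.98 and Cald1 at 21.0, 19.6 and 16.6. Of endothelial markers 0 could be tested, of fibroblast and macrophage markers 1 each. Of the adipocyte markers, Adipoq, Fabp4 and Lep were listed at 0, and the summed level was 245 to 262, 296 to 316 and 390.4 to 415 FPKM, nearly all of it Pparg. The part of these shifts in the results was not tested, and in bulk RNA fewer cells of a type and less RNA per cell cannot be told apart. A gene listed at 0 cannot be read as silent, since the ribosomal protein gene Rps6 was at 0 in all 9 libraries. Empty-vector AGEs replicate 3 correlated least with its own group across genes (mean r 0.9864, against 0.9873 and 0.9878 for replicates 2 and 1), and results that turn on it are given with and without it.

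The promoters in RefSeq's table for rat build GRCr8 (250 bases before to 50 after the annotated start) covered 7 of the 9 genes. They were searched for GTAAACA, the core that FOXO proteins bind, on both strands. It was found in 1 of the 7, that of Insr, and in 3.78% of all 33469 promoters of this length. The Insr promoter is shown because that gene is a textbook FOXO target, and the Akt2 promoter because Akt2 had the lowest adjusted p of the 9 genes below. Both are written 5′ to 3′ on the gene's strand, and capitals mark the motif, which in Insr lies as its reverse complement from 100 bases before the start. A match is a run of letters and not a shown binding site.
Insr promoter, chr12:6128754-6129053, minus strand: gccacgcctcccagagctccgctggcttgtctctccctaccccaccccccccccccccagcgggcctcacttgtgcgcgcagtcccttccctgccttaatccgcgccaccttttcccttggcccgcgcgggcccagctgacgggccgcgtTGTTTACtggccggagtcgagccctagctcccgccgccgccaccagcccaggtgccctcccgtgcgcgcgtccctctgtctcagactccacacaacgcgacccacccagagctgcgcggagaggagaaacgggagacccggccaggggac
Akt2 promoter, chr1:92021667-92021966, plus strand: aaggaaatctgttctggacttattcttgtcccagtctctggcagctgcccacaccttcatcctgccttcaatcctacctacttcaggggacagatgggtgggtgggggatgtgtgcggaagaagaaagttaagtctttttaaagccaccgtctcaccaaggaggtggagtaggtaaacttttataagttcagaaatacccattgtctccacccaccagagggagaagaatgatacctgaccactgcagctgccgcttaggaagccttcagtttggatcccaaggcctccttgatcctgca
The Insr promoter was 71.3% G or C and that of Akt2 49.7%, with a median of 51.7% over all promoters. Between the 7 promoters the share ran from 49.7% to 78.0%, the highest being that of Igf1r.

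The genes spanned a wide range of levels, and the kinases lay far above the rest. Akt1 averaged 155 FPKM over the 9 libraries (142 to 168), above 90.8% of the 8532 tested genes. Akt2 averaged 47.8 FPKM (40.7 to 57.5), below Akt1 in 9 of 9 libraries. Foxo3 came next at 13.4 FPKM (8.24 to 16.1), close to the median of tested genes, 13.3 FPKM. Igf1r followed at 9.47 FPKM (6.91 to 11.6), below Foxo3 in 8 of 9 libraries. Pik3r1 averaged 6.12 FPKM, Insr 5.25, Irs2 4.30, Foxo1 3.83 and Irs1 2.82. In this lower range neighbours crossed: Pik3r1 was above Insr in 7 of 9 libraries, Irs2 above Foxo1 in 6 and Foxo1 above Irs1 in 8, while Insr was above Irs2 in all 9.

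The lower genes had few fragments, and several of them spread more between libraries than counting alone gives. Akt1 had 1666 to 2094 fragments per library, while Foxo1 had 32 to 66, Irs1 42 to 104 and Pik3r1 49 to 118. Counting alone gives a coefficient of variation (CV) of 14.7% for Foxo1 in the CTSD group, where the observed CV over 3 libraries was 45.1%. For Pik3r1 in empty-vector AGEs cells the counting CV was 11.4% and the observed CV 40.3%, and for Irs1 in the same group 13.4% and 31.4%. For Akt1 the observed CV was 2.27% with BSA, 5.65% with AGEs and 2.81% with CTSD. These counting values cover sampling of fragments only.

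**Figure D1:**
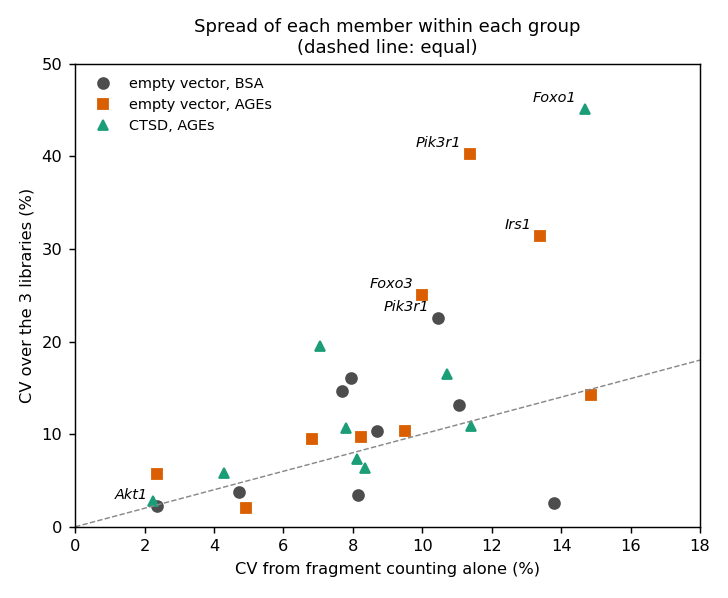
Coefficient of variation over the 3 libraries of a group (vertical, %) against the value fragment counting alone would give (horizontal, %), 1 point per gene and group, with the dashed line at equality. Foxo1 with CTSD (45.1%) and Pik3r1 (40.3%), Irs1 (31.4%) and Foxo3 (25.0%) with empty vector and AGEs lie farthest above the line.

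AGEs against BSA in empty-vector cells asks what AGEs do to these genes. In limma's moderated test over all 8532 genes, 0 of the 9 passed a Benjamini-Hochberg adjusted p of 0.05, against 15.0% of all tested genes (6.05% higher and 8.92% lower). At an unadjusted p of 0.05 there were 5, and with limma voom on fragments 1, Irs2. The log2 fold change, a difference of mean log2(FPKM + 1), was below 0 for 8 genes and above 0 for Igf1r alone (40.8% of all tested genes were above 0), with Akt1 at -0.01 and turning positive (0.06) with median-of-ratios scaling. Between same-numbered libraries, AGEs were below BSA in 3 of 3 pairs for Insr, Irs1, Irs2, Pik3r1, Akt2, Foxo1 and Foxo3. For Akt1 this held in 2 pairs and for Igf1r in 0. These pair counts were made for the 9 genes only, so no share of all tested genes stands beside them. The numbers come from sample titles, which do not say that they mark true pairs. With the replicate number as a block again 0 of the 9 passed. The median over the 9 was -0.20, and over all tested genes -0.06. The groups did not overlap for Insr, Irs2 and Akt2, lower with AGEs, and Igf1r, higher, and 32.5% of all tested genes did not overlap in this comparison (12.8% higher and 19.8% lower). Higher genes made up 40.4% of all calls in this comparison, but 59.6% after median-of-ratios scaling, 51.7% after quantile normalization and 58.9% with the trend in gene length removed.

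The question of the comparison between CTSD and the empty vector is the effect of more cathepsin D during exposure to AGEs. Here 3 of the 9 genes rose and 0 fell: Akt2, Foxo3 and Irs2. Among all tested genes 30.7% passed, 18.6% higher and 12.0% lower. A count of 3 in 9 is close to the share of all genes called in either direction. Log2 fold changes were above 0 for 8 genes (and for 56.7% of all tested genes) and below 0 for Igf1r, with Foxo1 at 0.00 and turning negative with median-of-ratios scaling (-0.04) and quantile normalization (-0.06). The median was 0.15, against 0.05 over all tested genes. Groups did not overlap for Irs2, Akt1, Akt2 and Foxo3, each higher with CTSD. The same held for 43.9% of all tested genes, 26.2% higher and 17.7% lower. Of all called genes 60.8% were higher with CTSD, but 48.2% with median-of-ratios scaling and 49.5% with the length trend removed. Both comparisons use the same 3 empty-vector AGEs libraries, and the values of each comparison are given side by side below.

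**Figure D2:**
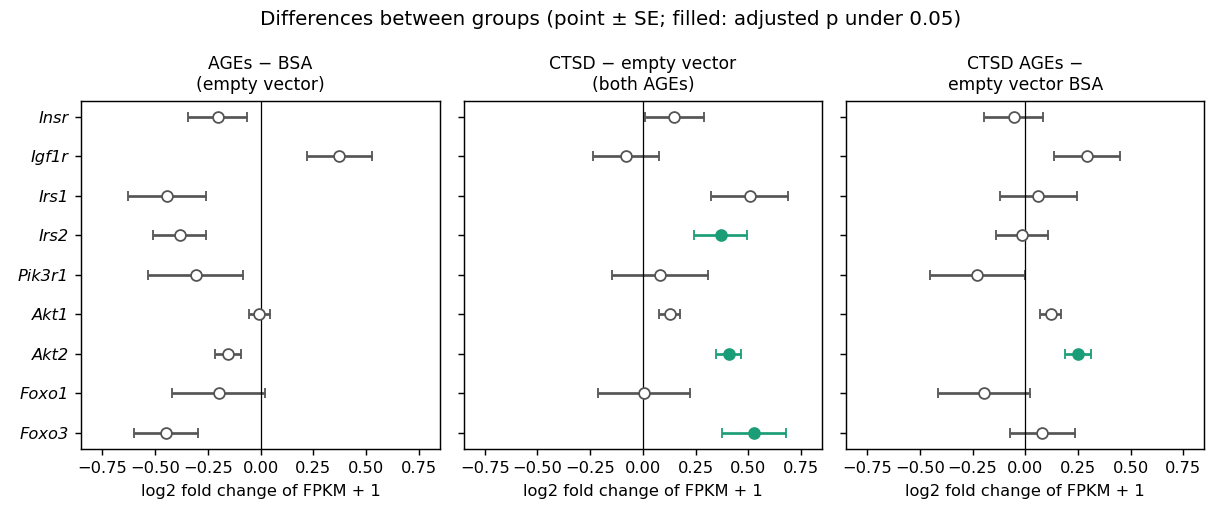
Log2 fold change of FPKM + 1 (horizontal) for the 9 genes (vertical) in 3 comparisons, as point ± SE from limma, with filled points at an adjusted p under 0.05. No gene is filled for AGEs against BSA, 3 are for CTSD against empty vector under AGEs (Akt2, Foxo3 and Irs2), and Akt2 alone is for CTSD with AGEs against empty vector with BSA.

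Insr (ENSRNOG00000029986, chromosome 12, 1680957 to 1816414 as deposited) encodes the insulin receptor. It measured 5.26, 5.07 and 6.59 FPKM in empty-vector BSA cells, 5.005, 4.21 and 5.03 in empty-vector AGEs cells, and 5.69, 4.71 and 5.72 in CTSD cells. The BSA libraries were all above the AGEs libraries, the lowest of them narrowly, and the CTSD libraries overlapped both groups. The log2 fold change was -0.20 (SE 0.14, limma adjusted p = 0.365) with AGEs and 0.15 (SE 0.14, adjusted p = 0.469) with CTSD. The AGEs value was -0.03 (adjusted p = 0.918) with the trend in gene length removed, -0.08 with quantile normalization, -0.10 without BSA replicate 3 and -0.13 without AGEs replicate 2.

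Igf1r (ENSRNOG00000014187, chromosome 1, 128924966 to 129206516) encodes the IGF1 receptor. It measured 6.91, 9.35 and 7.49 FPKM with BSA, 9.72, 11.6 and 10.2 with AGEs, and 7.74, 10.9 and 11.3 with CTSD. All 3 AGEs libraries were above all 3 BSA libraries, and the CTSD libraries spread over both. The log2 fold change with AGEs was 0.37 (SE 0.16, adjusted p = 0.138) and with CTSD -0.08 (SE 0.16, adjusted p = 0.743). The ratio of Igf1r to Insr was 1.43 ± 0.368 with BSA, 2.24 ± 0.449 with AGEs and 1.88 ± 0.483 with CTSD.

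Irs1 (ENSRNOG00000014597, chromosome 9, 88033668 to 88086488) encodes a docking protein for both receptors and was the lowest of the 9. It measured 3.56, 2.77 and 2.99 FPKM with BSA, 1.66, 1.70 and 2.80 with AGEs, and 3.71, 2.68 and 3.51 with CTSD. AGEs replicates 1 and 2 were below every other library, and AGEs replicate 3 lay within the range of the other groups. Its log2 fold change was -0.44 (SE 0.18, adjusted p = 0.133) with AGEs and 0.51 (SE 0.18, adjusted p = 0.0592) with CTSD. The AGEs value was -0.29 with the length trend removed. Without empty-vector AGEs replicate 3 both passed (-0.61, adjusted p = 0.0366, and 0.67, adjusted p = 0.0176). Without empty-vector AGEs replicate 1 neither passed (adjusted p = 0.323 and 0.172). The CTSD value also passed with voom (0.69, adjusted p = 0.0202). Of 17 alternatives, 1 passed with AGEs and 2 with CTSD.

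Irs2 (ENSRNOG00000023509, chromosome 16, 83824430 to 83848684) encodes the related docking protein. It measured 4.59, 4.91 and 4.79 FPKM with BSA, 3.68, 3.57 and 3.02 with AGEs, and 4.9997, 4.33 and 4.80 with CTSD. The 3 AGEs libraries were the lowest 3 of the 9, and the BSA and CTSD libraries overlapped. Irs2 rose with CTSD to 4.71 ± 0.345 FPKM from 3.43 ± 0.354 (0.37 in log2, SE 0.13, adjusted p = 0.0470). The call held in 2 of 17 alternatives, was lost with any of the 9 libraries left out, and reached an adjusted p of 0.168 with the trend in gene length removed. With AGEs the log2 fold change was -0.38 (SE 0.13, adjusted p = 0.0649), and -0.20 (adjusted p = 0.395) with the length trend removed. The gene model of Irs2 was 6501 bases, the longest of the 9. Across genes the rank correlation of fold change with length was -0.157 with AGEs and -0.0122 with CTSD.

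Pik3r1 (ENSRNOG00000018903, chromosome 2, 31745088 to 31826867) encodes the p85 alpha regulatory subunit of PI3K. It measured 5.93, 6.24 and 8.80 FPKM with BSA, 3.84, 4.85 and 8.16 with AGEs, and 5.16, 6.41 and 5.73 with CTSD. Replicate 3 was the highest in both empty-vector groups, all 3 groups overlapped, and AGEs were below BSA in 3 of 3 same-numbered pairs. The titles do not say that these are true pairs, and no share of all tested genes was counted. In limma's fit the log2 fold change was -0.31 (SE 0.23, adjusted p = 0.399) with AGEs and 0.08 (SE 0.23, adjusted p = 0.826) with CTSD. The AGEs value was -0.57 (adjusted p = 0.0563) without empty-vector AGEs replicate 3, -0.11 (adjusted p = 0.809) without AGEs replicate 1 and -0.15 (adjusted p = 0.742) without BSA replicate 3. The CTSD value was 0.34 (adjusted p = 0.198) without empty-vector AGEs replicate 3 and -0.12 (adjusted p = 0.746) without AGEs replicate 1.

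Akt1 (ENSRNOG00000028629, chromosome 6, 137218376 to 137236258) encodes the AKT isoform known for growth and survival. It measured 152, 147 and 153 FPKM with BSA, 151, 159 and 142 with AGEs, and 166, 168 and 159 with CTSD. The BSA and AGEs libraries overlapped, and the CTSD libraries were the highest 3 of the 9, the lowest of them by a small margin over AGEs replicate 2. Its log2 fold change was -0.01 (SE 0.05, adjusted p = 0.950) with AGEs and 0.13 (SE 0.05, adjusted p = 0.0822) with CTSD. The latter passed with quantile normalization (adjusted p = 0.0312) and without empty-vector AGEs replicate 2 (adjusted p = 0.0355), and was 0.06 (adjusted p = 0.427) with median-of-ratios scaling.

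Akt2 (ENSRNOG00000018677, chromosome 1, 84411726 to 84450162) encodes the AKT isoform known for insulin-driven glucose uptake. It measured 45.5, 48.4 and 45.3 FPKM with BSA, 41.7, 42.4 and 40.7 with AGEs, and 57.5, 51.7 and 57.1 with CTSD. The 3 groups did not overlap, with CTSD the highest and AGEs the lowest. How many of all tested genes separate in all 3 groups was not counted. Taken 2 groups at a time, 32.5% of all tested genes did not overlap for AGEs against BSA. The share was 43.9% for CTSD against empty vector under AGEs and 48.8% for CTSD with AGEs against BSA. Akt2 rose with CTSD from 41.6 ± 0.851 to 55.5 ± 3.25 FPKM, 1.33 times as high (0.41 in log2, SE 0.06, adjusted p = 0.000722). The call held in each of the 18 alternatives, with an adjusted p of at most 0.00444. With AGEs the log2 fold change was -0.16 (SE 0.06, adjusted p = 0.120), with median-of-ratios scaling -0.09, and in no alternative did it pass. The ratio of Akt1 to Akt2 was 3.26 ± 0.191 with BSA, 3.62 ± 0.131 with AGEs and 2.97 ± 0.245 with CTSD.

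**Figure D3:**
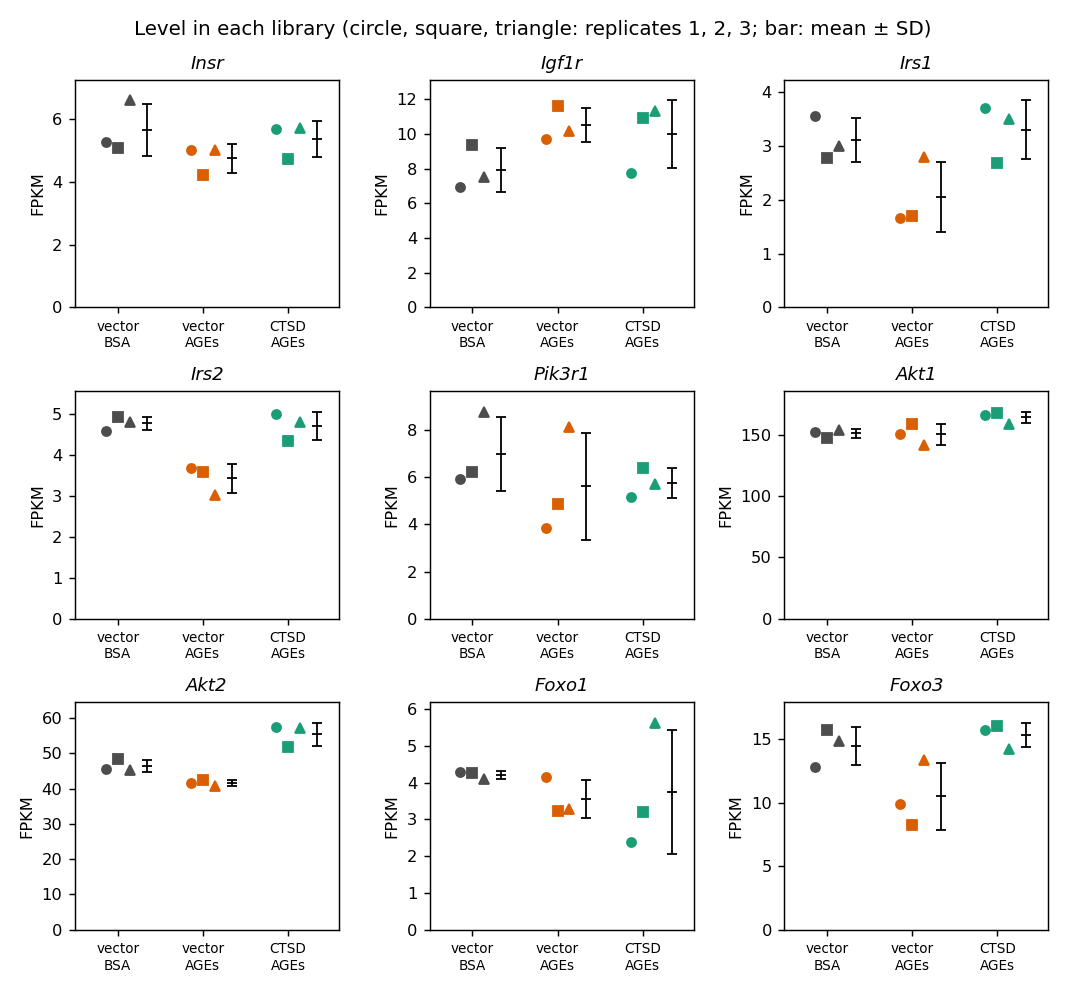
FPKM (vertical, from 0) of the 9 genes in each library, by group (horizontal), with circle, square and triangle for replicates 1, 2 and 3 and the bar for mean ± SD of 3 libraries. Of the 9 genes Akt2 alone has 3 groups that separate, at 45.3 to 48.4, 40.7 to 42.4 and 51.7 to 57.5 FPKM. This pattern was not counted over all tested genes. AGEs replicate 3 stands above its group for Irs1, Pik3r1 and Foxo3, and is the lowest of its group for Irs2, Akt1 and Akt2.

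Foxo1 (ENSRNOG00000013397, chromosome 2, 141451234 to 141527016) encodes the FOXO factor best known for the response to insulin. It measured 4.28, 4.27 and 4.09 FPKM with BSA, 4.14, 3.24 and 3.29 with AGEs, and 2.39, 3.20 and 5.63 with CTSD. The CTSD group held both the lowest and the highest library of the 9. The log2 fold change was -0.20 (SE 0.22, adjusted p = 0.584) with AGEs and 0.00 (SE 0.22, adjusted p = 0.991) with CTSD. Without CTSD replicate 3 the latter was -0.27 (adjusted p = 0.286).

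Foxo3 (ENSRNOG00000000299, chromosome 20, 46428124 to 46519144) encodes the FOXO factor tied to stress resistance and autophagy. It measured 12.8, 15.7 and 14.9 FPKM with BSA, 9.88, 8.24 and 13.4 with AGEs, and 15.7, 16.1 and 14.2 with CTSD. AGEs replicates 1 and 2 were the lowest libraries, AGEs replicate 3 lay within the BSA range, and each CTSD library was above each AGEs library. Foxo3 rose with CTSD from 10.5 ± 2.63 to 15.3 ± 0.976 FPKM, 1.46 times as high (0.53 in log2, SE 0.15, adjusted p = 0.0232). The call was lost without empty-vector AGEs replicate 1 or 2 or CTSD replicate 1 or 2 (adjusted p 0.0652 to 0.0719) and held in the other 14 alternatives. With AGEs the log2 fold change was -0.45 (SE 0.15, adjusted p = 0.0743), and -0.62 (adjusted p = 0.00856) without AGEs replicate 3. That was the only 1 of 18 alternatives to pass, and without AGEs replicate 2 the adjusted p was 0.219.

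CTSD cells with AGEs were also set against empty-vector BSA cells, which differ in both the transfected gene and the treatment. Of the 9 genes 1 rose, Akt2, at 55.5 ± 3.25 against 46.4 ± 1.72 FPKM (0.25 in log2, SE 0.06, adjusted p = 0.0113), and 0 fell, where 32.6% of all tested genes passed (16.3% in each direction) and 50.5% had a log2 fold change above 0. For Akt1 the log2 fold change was 0.12 (adjusted p = 0.0924), and the groups did not overlap, as for 48.8% of all tested genes (24.0% higher and 24.8% lower). Foxo3 (0.08), Irs1 (0.06) and Irs2 (-0.02) had adjusted p-values of 0.717, 0.827 and 0.940, and their groups overlapped. Igf1r was at 0.29 (adjusted p = 0.176) and passed in this comparison without CTSD replicate 1 (0.45, adjusted p = 0.0485). The Akt2 call held in all 18 alternatives.

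Among the 9 genes the log2 levels of Irs1 and Foxo3 had the highest Pearson r over the 9 libraries, 0.79, followed by Irs2 and Akt2 at 0.76. The lowest was that of Insr and Igf1r, -0.61. The group means ranged most for Foxo3 (0.53 log2 units) and Irs1 (0.51). The tested genes most like Foxo3 over the 9 libraries were LOC680039 (r 0.95), Foxn3 (0.94) and Kdm2a (0.94), with 24 genes at 0.9 or above. Those most like Irs1 were Foxj2 (0.96), Wdr11 (0.94) and Tssc4 (0.94), with 14 genes at 0.9 or above. These correlations share libraries and groups and are descriptions.

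The rest of the pathway was taken from 7 lists of 111 genes, of which 108 matched the table and 75 could be tested. With AGEs 5 of the 75 rose and 6 fell, 14.7%, beside 15.0% of all genes. With CTSD 16 rose and 5 fell, 28.0%, beside 30.7%. The median log2 fold change was -0.12 with AGEs and 0.11 with CTSD. Sources used here do not state how fragments with several matches or from the opposite strand were counted. Genes with near-identical copies elsewhere, which may include Ppp2ca and Ywhaz, are therefore uncertain. Which genes have such copies was not examined.

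**Figure D4:**
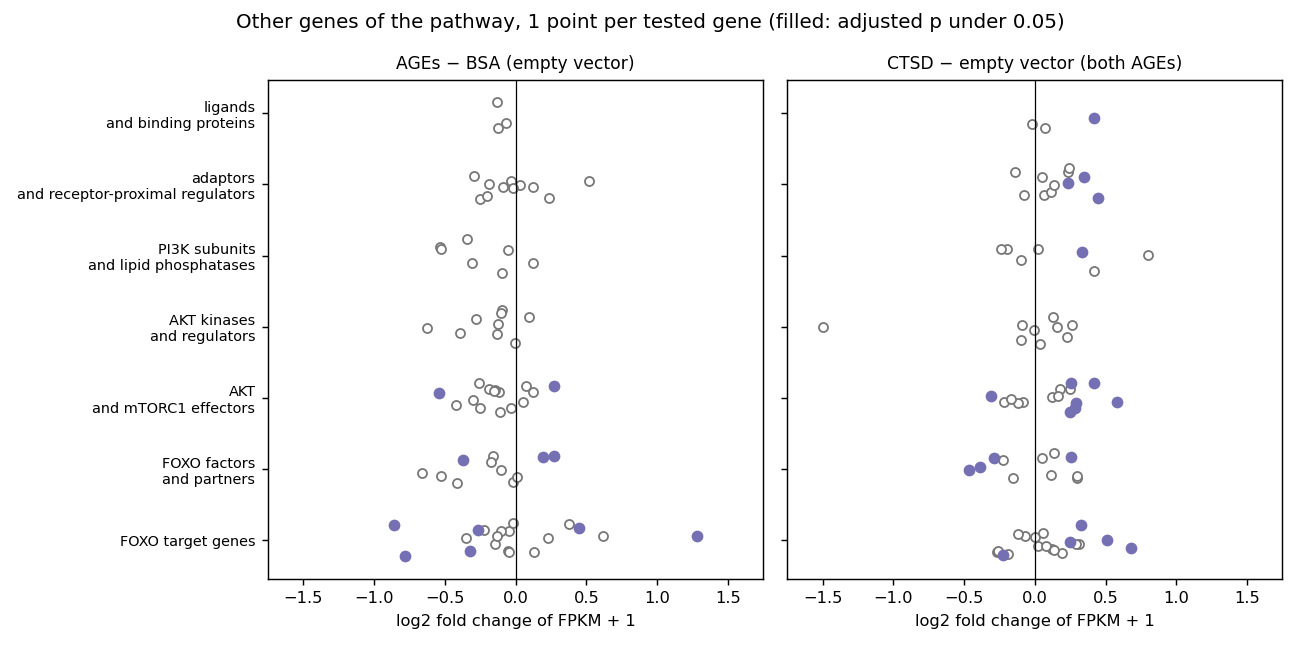
Log2 fold change of FPKM + 1 (horizontal) of each tested gene in the 7 other pathway lists (vertical, points spread for display) for AGEs against BSA and for CTSD against empty vector under AGEs, filled at an adjusted p under 0.05. With AGEs 11 of 75 points are filled, and with CTSD 21; the unfilled point at -1.50 is Ppp2ca.

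Of 16 matched ligands and binding proteins 9 were listed at 0, Ins1, Ins2 and Igf2 among them, and 3 could be tested. Igfbp4, which encodes a secreted IGF-binding protein, measured 65.5, 58.5 and 64.3 FPKM with BSA, 55.2, 59.5 and 57.5 with AGEs, and 82.2, 67.9 and 81.7 with CTSD. It rose with CTSD (0.42 in log2, SE 0.08, adjusted p = 0.0029), and all CTSD libraries were above all others. With AGEs Igfbp4 was at -0.13 (adjusted p = 0.321) and Igf2bp2, an RNA-binding protein gene, at -0.13 (adjusted p = 0.396). Of the 3 tested, 0 passed with AGEs (15.0% of all tested genes) and Igfbp4 alone with CTSD (30.7%).

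Receptor-proximal adaptors and regulators had 3 of 11 tested members higher and 0 lower with CTSD, and 0 of 11 called with AGEs. Among all tested genes 30.7% passed with CTSD (18.6% higher) and 15.0% with AGEs. Socs3, a feedback inhibitor that can target IRS proteins for degradation, measured 50.1, 44.4 and 45.4 FPKM with BSA, 51.8, 51.5 and 49.5 with AGEs, and 70.5, 66.6 and 72.6 with CTSD. It rose with CTSD (0.45 in log2, SE 0.06, adjusted p = 0.000456), and the CTSD libraries stood apart from the other 6. Shc1, which links receptors to the RAS pathway, rose by 0.35 (adjusted p = 0.00333), and Sh2b1, an adaptor that enhances receptor signalling, by 0.24 (adjusted p = 0.00656). With AGEs the adaptor gene Crk was at -0.19 (adjusted p = 0.167). Its adjusted p was 0.0106 without empty-vector AGEs replicate 3, the only 1 of 18 alternatives to pass, and 0.461 without replicate 2. Shc1 was at -0.02 (adjusted p = 0.9) with AGEs, turning positive with median-of-ratios scaling.

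Of 7 PI3K subunits and lipid phosphatases tested, 1 rose and 0 fell with CTSD (30.7% of all tested genes passed). With AGEs 0 of the 7 passed (15.0% of all tested genes). Inppl1, which encodes the SHIP2 lipid phosphatase, rose with CTSD from 142 ± 1.02 to 179.6 ± 7.80 FPKM (0.34 in log2, SE 0.05, adjusted p = 0.000473). With AGEs Inppl1 was at -0.05 (adjusted p = 0.483), turning positive (0.01) with median-of-ratios scaling. Pik3r2, which encodes another PI3K regulatory subunit, was at 35.9 ± 0.803 FPKM with BSA, 39.3 ± 3.99 with AGEs and 36.6 ± 3.51 with CTSD, and its log2 fold change with AGEs was 0.12 (adjusted p = 0.395).

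Among AKT kinases and their regulators 0 of 9 passed in either comparison, where 15.0% of all tested genes passed with AGEs and 30.7% with CTSD. The members with the highest mean were Ppp2ca, the catalytic subunit gene of a phosphatase that acts on AKT, and Pdpk1, which encodes the kinase that activates AKT. Ppp2ca was at 154 ± 44.6, 113 ± 4.11 and 60.1 ± 45.6 FPKM in the 3 groups (-1.50 with CTSD, SE 0.71, adjusted p = 0.139; -0.39 with AGEs, adjusted p = 0.755). Without CTSD replicate 3 the CTSD value was -0.39 (adjusted p = 0.2), and with voom on all libraries -1.47 (adjusted p = 0.0402). The AGEs value was -0.66 without empty-vector BSA replicate 2 and -0.25 without empty-vector BSA replicate 3. Pdpk1 was at 59.4 ± 4.57, 55.4 ± 5.73 and 51.7 ± 5.70 FPKM.

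The list of AKT and mTORC1 effectors had 6 of 15 higher and 1 lower with CTSD (18.6% and 12.0% of all tested genes), and 1 higher and 1 lower with AGEs (6.05% and 8.92%). Mtor, which encodes the growth kinase, measured 15.0, 14.8 and 15.4 FPKM with BSA, 8.98, 10.1 and 11.2 with AGEs, and 12.8, 13.9 and 14.6 with CTSD. It fell with AGEs by 0.54 (SE 0.10, limma adjusted p = 0.00602), and by 0.32 (adjusted p = 0.0392) with the length trend removed. Mtor was higher with CTSD than with empty vector under AGEs by 0.42 (SE 0.10, adjusted p = 0.00966). Its 3 groups did not overlap, and the share of all tested genes that separate in this way was not counted. Rheb, the small GTPase gene that activates mTORC1, went the other way: 502, 525 and 459 FPKM with BSA, 593, 599.7 and 596 with AGEs, and 491, 481 and 468 with CTSD. It rose with AGEs by 0.27 (adjusted p = 0.00556) and fell with CTSD by 0.31 (adjusted p = 0.000871). Tsc2, whose product inactivates RHEB, was higher with CTSD by 0.58 (adjusted p = 0.0101), and Eif4ebp1, a translation repressor gene, by 0.29 (adjusted p = 0.00446). The other rises, picked out after their values were seen, were Gsk3b (0.29, adjusted p = 0.00484), Gsk3a (0.25, adjusted p = 0.0108) and Rps6kb2 (0.26, adjusted p = 0.0499). The Rps6kb2 call held in 3 of 18 alternatives and was lost without any single library except empty-vector BSA replicate 2 (adjusted p 0.0517 to 0.174).

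FOXO partners and regulators split, with 1 of 11 tested higher and 3 lower with CTSD (18.6% and 12.0% of all tested genes). With AGEs 2 were higher and 1 lower (6.05% and 8.92% of all tested genes). With CTSD 3 of 11 fell: Ctnnb1, the beta-catenin gene (-0.39, adjusted p = 0.000105), Ywhaz, a 14-3-3 gene whose product holds FOXO proteins in the cytoplasm (-0.29, adjusted p = 0.00067), and Usp7, which encodes a FOXO deubiquitinase (-0.46, adjusted p = 0.00638). Ywhag, another 14-3-3 gene, rose (0.26, adjusted p = 0.0285) but lost the call in 5 alternatives, among them median-of-ratios scaling (adjusted p = 0.0898) and leaving out empty-vector AGEs replicate 1 (0.104) or CTSD replicate 3 (0.104). With AGEs Ctnnb1 rose from 232 ± 6.20 to 279.6 ± 8.03 FPKM (0.27, adjusted p = 0.00263) and Ywhaz from 551 ± 18.7 to 629 ± 18.4 (0.19, adjusted p = 0.0154; 0.141 with quantile normalization, 0.0535 without empty-vector BSA replicate 1 and 0.06 without empty-vector BSA replicate 3). Ep300, an acetyltransferase gene, fell with AGEs (-0.37, adjusted p = 0.0421) and lost the call in 12 of 18 alternatives, with 7 of the 9 single libraries left out (all but empty-vector BSA replicate 2 and empty-vector AGEs replicate 3; adjusted p 0.0548 to 0.142) among them.

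Most FOXO target genes did not pass. The list mixes genes that FOXO factors switch on with repressed ones such as Ccnd1, so its counts and medians carry no single direction. Of 19 tested, 2 rose and 4 fell with AGEs (15.0% of all genes passed), with a median of -0.05, and 4 rose and 1 fell with CTSD (30.7% of all genes passed), with a median of 0.08. Calls of Ccnd2, Gabarapl1, Gadd45a, Rbl2, Bnip3 and Cat were lost in some alternatives, as given with each. Txnip, which encodes a thioredoxin-binding protein that limits glucose uptake, measured 3.15, 3.59 and 3.88 FPKM with BSA, 11.5, 9.45 and 9.23 with AGEs, and 11.4, 10.1 and 11.5 with CTSD. All AGEs libraries lay far above BSA (1.28 in log2, SE 0.12, adjusted p = 0.000242), and CTSD and empty-vector AGEs libraries overlapped (0.12, adjusted p = 0.514). Bnip3, a mitophagy receptor gene, also rose with AGEs (0.45, adjusted p = 0.0138; 0.055 without empty-vector AGEs replicate 1).

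Rbl2, which encodes the p130 growth-arrest protein, measured 11.2, 12.0 and 13.6 FPKM with BSA, 7.06, 4.99 and 7.01 with AGEs, and 10.03, 8.67 and 9.43 with CTSD. It fell with AGEs by 0.86 (SE 0.14, limma adjusted p = 0.00313). Rbl2 was higher with CTSD than with empty vector under AGEs by 0.51 (SE 0.14, adjusted p = 0.0179). That adjusted p was 0.0626 without CTSD replicate 1 and 0.0506 without CTSD replicate 3. Its 3 groups did not overlap, and the share of all tested genes that separate in this way was not counted. Gabarapl1, an autophagosome gene, measured 83.5, 91.8 and 88.8 FPKM with BSA, 75.4, 78.8 and 65.7 with AGEs, and 115, 118.5 and 119 with CTSD. It rose with CTSD by 0.68 (SE 0.07, adjusted p = 6.63e-05) and against BSA cells by 0.42 (adjusted p = 0.00146), and the CTSD libraries were above the other 6. It fell with AGEs by 0.26 (adjusted p = 0.0285), a call lost with median-of-ratios scaling (0.0998), in a fit of the 2 groups alone (0.0668), and without empty-vector BSA replicate 2 (0.0936) or 3 (0.0796) or empty-vector AGEs replicate 1 (0.0558).

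Gadd45a, a stress-response and repair gene, fell with AGEs by 0.33 (adjusted p = 0.015; 0.0516 without empty-vector BSA replicate 2) and was higher with CTSD by 0.25 (adjusted p = 0.0257; 0.082 with median-of-ratios scaling, and 0.0544 to 0.0951 without empty-vector AGEs replicate 1 or 3 or CTSD replicate 1 or 3). Ccnd1, the cyclin D1 gene, which FOXO factors repress, rose with CTSD by 0.32 (adjusted p = 0.00922). Ccnd2, the cyclin D2 gene, was at 5.37 ± 0.812 FPKM with BSA and 2.68 ± 0.204 with AGEs (-0.79, adjusted p = 0.0455), a call lost in 11 of 17 alternatives and without each of the 6 libraries compared (adjusted p 0.0563 to 0.138) or CTSD replicate 1 (0.0583). The 1 gene of this list that fell with CTSD, named after its value was seen, was Cat, the catalase gene (-0.23, adjusted p = 0.0473), and its call was lost in 12 of 18 alternatives and without each of the 9 libraries (adjusted p 0.0544 to 0.161).

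**Figure D5:**
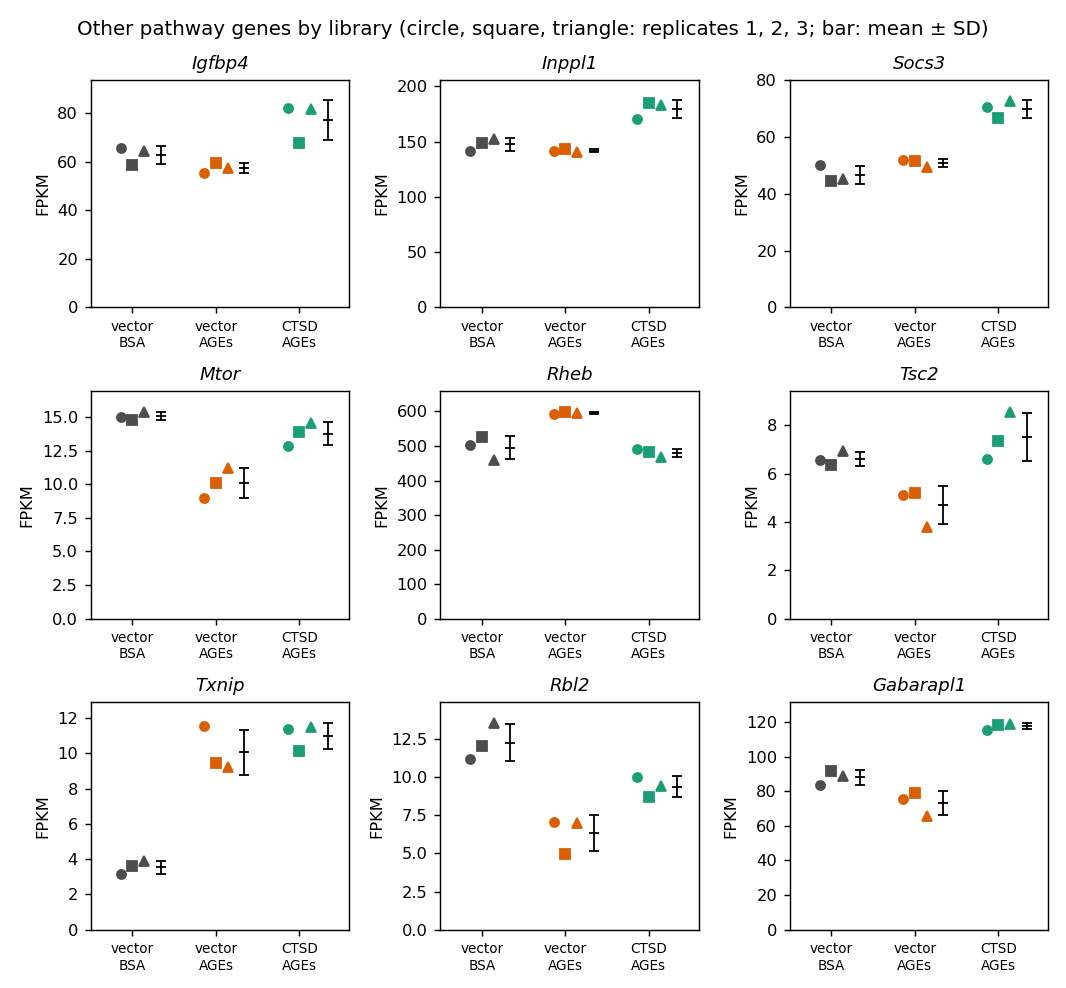
FPKM (vertical, from 0) of 9 further pathway genes in each library, by group (horizontal), with circle, square and triangle for replicates 1, 2 and 3 and the bar for mean ± SD of 3 libraries. Gabarapl1 is highest with CTSD (115 to 119 FPKM), Txnip is high in both AGEs groups (9.23 to 11.5 FPKM), and Mtor and Rbl2 are lowest with empty vector and AGEs.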

How the data were processed

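RNA from 9 libraries of rat aortic smooth muscle cells was measured as FPKM per gene, deposited by the authors in 1 table with gene models and positions; 0 columns of other samples were left unused. The submitters' processing notes name the mouse build mm10, while 32623 of 32792 identifiers are rat Ensembl IDs, so positions are printed as deposited with no build. Which aligner, counter and annotation were used is not given in those notes. Multiplied by gene length, the deposited FPKM fell on whole multiples of 1 fragment for 99.1% to 99.4% of values under 200 fragments (within 0.1), which gave the fragments per library. A count of 0 in a gene of 1 kb allows up to 3 fragments, 0.562 to 0.668 FPKM by library; such limits cover counting error only.

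The 8532 genes reaching 1 FPKM in 3 or more libraries were fitted with limma 3.58.1 in R 4.3.3 on log2(FPKM + 1), group means over all 9 libraries and a mean-variance trend, with Benjamini-Hochberg adjustment over all tested genes and calls at 0.05. A fold change on this scale understates the change of low genes. The script was tested on simulated counts with the same spread beyond counting in every gene, which checks the code and not the calls of these genes. Alternatives were a pseudocount of 0.1, no filter on low genes, a floor of 5 FPKM on the mean, scaling by median of ratios, a quantile normalization, a replicate block, a fit of the 2 groups compared, limma voom on fragments, removal of the trend with gene length, and leaving out each library. Voom called 1546, 2756 and 2992 genes in the 3 comparisons, where the FPKM fit called 1277, 2617 and 2782. Replicate numbers are part of the sample titles; residuals of same-numbered libraries correlated at 0.135, 0.142 and 0.152 between BSA and empty-vector AGEs cells, and the block changed no call of the 9 genes there.

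The 9 genes, the pathway lists and the markers were chosen with earlier results of these data known. In each list and main comparison the text names up to 4 called genes with the largest absolute log2 fold change and, where 0 were called, up to 2 members with the highest mean FPKM; genes named outside that rule are said to be. Some genes of the pathway are not reported here and were left out of the lists. Python 3.11.15 with pandas 2.3.3, numpy 2.4.6, scipy 1.17.1 and matplotlib 3.10.9 was used.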

Additional observations from a re-analysis of the deposited data

How the results depend on the processing

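Over 18 alternatives, 9 of which left out a library, the 76 named results gave 1358 values: 1223 kept direction and side of the threshold, 94 lost the call, 10 gained one and 31 changed sign, 0 of the last being called in either fit. With AGEs the 9 genes had 0 calls, 1 with voom, and 0 to 2 without single libraries (2 without empty-vector AGEs replicate 3). With CTSD they had 3 calls, 2 with no filter, with a floor of 5 FPKM on the mean, with scaling by median of ratios, with the length trend removed or in a fit of the 2 groups compared, and 4 with voom. Without single libraries that count was 1 to 3, and 1 without empty-vector AGEs replicate 1, CTSD replicate 1 or CTSD replicate 2. Against BSA cells it was 1, and 1 to 2 without single libraries (2 without CTSD replicate 1). All called genes numbered 1277 with AGEs, and 760 to 1605 without single libraries (760 to 837 without any 1 of the BSA libraries or AGEs replicate 1 or 2). Without single libraries the CTSD comparison gave 2095 to 2524 and the comparison with BSA cells 2108 to 3090. Residuals of same-numbered libraries correlated at 0.0798, -0.0346 and 0.074 between CTSD and empty-vector AGEs cells, which cannot show whether these libraries are pairs. In that comparison the replicate block gave 2 calls among the 9 genes, losing Irs2 (limma adjusted p = 0.075), and 2581 in all. The block also lost the calls of Cat (0.0584) and Rps6kb2 (0.0778). It changed no other call of a named gene. Signs changed mostly for values near 0, and also for Foxo1 at -0.19 against BSA cells. With AGEs, Akt1 was 0.0568 with median-of-ratios scaling and 0.0429 with the length trend removed, Shc1 0.046 and 0.0787, Inppl1 0.00892 and 0.0391. With CTSD, Foxo1 was -0.00935 with a pseudocount of 0.1, -0.0439 with median-of-ratios scaling, -0.0558 with quantile normalization, -0.0316 with voom and -0.0286 with the length trend removed. Against BSA cells, Insr was 0.0294 with quantile normalization and 0.0401 with the length trend removed, and Irs2 0.0463 and 0.0837. Without single libraries, values with AGEs ran from -0.046 to 0.0351 for Akt1 and -0.0598 to 0.0286 for Shc1. With CTSD they ran from -0.17 to 0.08 for Igf1r, -0.12 to 0.34 for Pik3r1 and -0.27 to 0.22 for Foxo1. Against BSA cells they ran from -0.12 to 0.0453 for Insr, -0.00759 to 0.17 for Irs1, -0.052 to 0.0336 for Irs2 and -0.47 to 0.0176 for Foxo1. The cause was not tested. Irs1, Irs2 and Foxo1 have no value under the floor of 5 FPKM on the mean.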

Other observations

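Ppp2ca stood apart in 1 library. It measured 176, 103 and 183 FPKM in empty-vector BSA cells, 109, 117 and 114 in empty-vector AGEs cells, and 81.8, 90.8 and 7.75 in CTSD cells. CTSD replicate 3 held 33 fragments of the gene, against 398 and 423 in replicates 1 and 2. Each CTSD library was below each of the other 6, and the gene passed in neither comparison with limma on FPKM, but for CTSD with voom (adjusted p = 0.0402).

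Empty-vector AGEs replicate 3 was the highest of its group for Irs1, Pik3r1, Foxo3, Crk and Usp7. It was the lowest of its group for Irs2, Akt1, Akt2, Tsc2 and Gabarapl1. These genes were picked out, and the shares of all tested genes were not counted. Crk and Usp7 were more variable in this group than in the others (SD 25.1 and 20.3 FPKM, against at most 5.85 and 4.14).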
